A study of Mus musculus with 2 samples.

Results

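Peritoneal macrophages of germ-free mice carried transcripts of a small set of coagulation and fibrinolysis genes, and the 6 described here were F5, F7, F10, F13a1, Thbs1 and Serpinb2, chosen by symbol from the 28692 genes listed in the files. F5, F7, F10 and F13a1 encode coagulation factors, whereas Thbs1 encodes the matricellular glycoprotein thrombospondin-1 and Serpinb2 the serpin known as plasminogen activator inhibitor 2. Single cells of the peritoneal cavity were captured in droplets (10x Chromium, 3′ chemistry) from male C57BL/6 mice aged 10 weeks and kept germ-free. The WT library pooled 4 wild-type mice, and the Xbp1dIEC library pooled 4 mice of that genotype, a model known to lack Xbp1, which encodes a regulator of endoplasmic reticulum stress responses, in the epithelium of the intestine. The driver of the deletion is not given in the sources used here, and the tissue measured was not the intestine. With 1 library per genotype no difference between genotypes had a replicate check and no test was possible, and every interval below is a 95% interval that covers counting error only.

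In the coagulation cascade, factor VII bound to tissue factor activates factor X, and active factor X with its cofactor factor V turns prothrombin into thrombin. Thrombin then forms fibrin, which the transglutaminase subunit encoded by F13a1 cross-links, and plasmin dissolves it again. Most circulating factors are made by the liver, but macrophages are known to make several of them, and resident macrophages of the peritoneum take part in clot formation in that cavity.

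The libraries held 6204 (WT) and 6246 (Xbp1dIEC) barcodes, of which 6058 and 6113 were kept, and 58 barcode sequences occurred in both. Cells were gated by UMIs, that is counted molecules, of marker genes. Large macrophages (Gata6, Timd4, Selp, Icam2, Adgre1, Alox15 and Prg4) numbered 2862 in WT and 2911 in Xbp1dIEC. Macrophages with Folr2, Retnla and Cbr2 numbered 319 and 444, Cd209a cells (Cd209a, Mgl2 and Ear2) 71 and 80, and lymphocytes (B, T and NK cells) 1975 and 2060. The median depth of a large macrophage was 9418 UMIs in the WT and 7632 in the Xbp1dIEC library, and that of a lymphocyte 5092 and 5800. Xbp1 itself stood at 109 CPM (counts scaled to all UMIs of the gate) in WT large macrophages and 118 CPM in Xbp1dIEC ones, which does not check a deletion in another tissue. The summed level of 5 general macrophage genes (Csf1r, Cd68, Mertk, Lyz2 and Fcgr1), most of it Lyz2, was 49175 CPM in WT and 55064 CPM in Xbp1dIEC large macrophages, 35278 and 39817 CPM in the Folr2/Retnla gate, and 1367 and 916 CPM in lymphocytes. Csf1r, the macrophage growth factor receptor, was at 347 and 366 CPM in large macrophages and at 8.08 and 5.57 CPM in lymphocytes. Of 6 platelet genes only Pf4 reached 1 CPM in large macrophages, at 7345 CPM in WT and 5516 CPM in Xbp1dIEC, while Gp1bb and Gp6 had no UMI. The hepatocyte genes Alb, Apoa1 and Serpina1a had no UMI in any gate.

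F7 and F10 encode vitamin K-dependent serine proteases and lie next to each other on mouse chromosome 8. In the GENCODE annotation of GRCm38, F7 spans chr8:13026034-13035809 and F10 chr8:13037308-13056676, both on the plus strand and 1498 bases apart. F13a1 lies on the minus strand at chr13:36867178-37050244. RefSeq promoters of GRCm38.p6 were matched for 5 of the 6 genes, all but Thbs1. The 250 bases before the start are shown for the 2 neighbouring proteases and for F13a1, because these genes stood apart from the others in the comparisons below. Capitals mark GAGGAA or its reverse complement TTCCTC, the core motif of the myeloid factor PU.1.
F7, chr8:13025784-13026033, plus strand: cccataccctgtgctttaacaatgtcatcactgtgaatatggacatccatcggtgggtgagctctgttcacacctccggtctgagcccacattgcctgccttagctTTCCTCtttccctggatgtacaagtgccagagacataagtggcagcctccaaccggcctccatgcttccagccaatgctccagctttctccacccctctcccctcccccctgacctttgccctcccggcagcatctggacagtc
F10, chr8:13037058-13037307, plus strand: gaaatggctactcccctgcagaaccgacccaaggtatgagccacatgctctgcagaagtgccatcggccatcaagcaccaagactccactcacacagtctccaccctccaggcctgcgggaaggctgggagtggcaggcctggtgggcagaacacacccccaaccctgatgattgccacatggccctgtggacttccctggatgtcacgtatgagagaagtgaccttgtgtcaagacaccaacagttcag
F13a1, chr13:37050245-37050494, minus strand: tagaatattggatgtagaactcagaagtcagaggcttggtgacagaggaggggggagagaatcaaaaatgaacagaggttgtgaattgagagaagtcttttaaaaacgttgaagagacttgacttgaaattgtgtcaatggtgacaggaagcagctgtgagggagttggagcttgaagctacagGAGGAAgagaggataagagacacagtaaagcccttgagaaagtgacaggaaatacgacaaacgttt
F7 held 1 match, at position -144 from the start, F13a1 held 1, at -66, and F10 held none. RefSeq gives F13a1 another start, and the 250 bases before it (chr13:37049214-37049463) held no match. On either strand, 23.1% of 27025 promoters of that length held this motif. A GATA motif (the letters AGATAA, the letters AGATAG, the letters TGATAA or the letters TGATAG, on both strands), searched because Gata6 is the defining factor of large peritoneal macrophages, was in none of the windows of these 3 genes and in 27.1% of all promoters. Of the promoters matched but not shown, that of F5 held no GATA match. Serpinb2 held none before 1 of its starts and 1 match, at -41, before the other. A match describes the letters only, and no match says nothing on the factor.

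All 6 genes were concentrated in macrophages. F5, the cofactor of active factor X (chr1:164151838-164220277, plus strand), stood at 309 CPM (303 to 316) in WT and 357 CPM (349 to 365) in Xbp1dIEC large macrophages, and at 4.68 and 3.54 CPM in lymphocytes. F7 stood at 91.1 CPM (87.6 to 94.7) and 67.0 CPM (63.6 to 70.5) in large macrophages and at 1.35 and 0.787 CPM in lymphocytes. F10 reached 364 CPM (357 to 371) and 283 CPM (276 to 290), against 7.37 and 3.34 CPM in lymphocytes. In each library the intervals of the macrophage and lymphocyte levels did not overlap for these 3 factors.

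F13a1 measured 146 CPM (142 to 151) in WT and 183 CPM (177 to 189) in Xbp1dIEC large macrophages, and 2.85 and 2.56 CPM in lymphocytes. Thbs1 (chr2:118111876-118127133, plus strand) measured 570 CPM (561 to 579) and 734 CPM (722 to 745), and 10.1 and 7.61 CPM in lymphocytes. Serpinb2, an inhibitor of urokinase (chr1:107511423-107535478, plus strand), measured 364 CPM (357 to 372) and 331 CPM (323 to 339), and 5.31 and 2.95 CPM in lymphocytes. The end of Serpinb2 overlaps Serpinb10 on the same strand by 6476 bases. Serpinb10 was not analysed here, so reads from the shared bases are uncertain for Serpinb2. The lncRNA Gm16548, antisense to the start of F5, had 149 UMIs in the whole WT library against 10074 of F5, and 153 against 9140 in Xbp1dIEC.

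On the scale of CPM + 1, large macrophages exceeded lymphocytes between 38.2 and 57.9 times in WT and between 38.0 and 85.4 times in Xbp1dIEC. All 6 genes passed a 2-fold difference in both libraries, as did 19.2% of all genes tested in WT and 18% in Xbp1dIEC. The lymphocyte level was between 1.46% and 2.02% of the large macrophage level over the 6 genes in WT and between 0.892% and 1.40% in Xbp1dIEC. The 7 marker genes of large macrophages gave medians of 1.94% and 1.22% by the same measure, beside 1.64% and 1.11% for the 6 genes. Over these markers the values ran from 0.748% to 10.2% in WT and from 0.742% to 9.54% in Xbp1dIEC, with Icam2 highest. Cells with 5 or more UMIs of these markers could not enter the lymphocyte gate, which limited the marker levels there. Among genes not used in the gates, Lyz2 gave 2.76% and 1.64%, Csf1r 2.33% and 1.52%, and Pf4 1.97% and 1.25%. Whether the low lymphocyte values of the 6 genes are background or expression was not tested. They differed between libraries too: 2 of the 5 genes with 30 or more UMIs, F10 and Serpinb2, were 1.5-fold lower in Xbp1dIEC lymphocytes and none was higher. Of all genes tested there, 2.64% were past 1.5-fold lower and 1.86% higher.

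**Figure D1:**
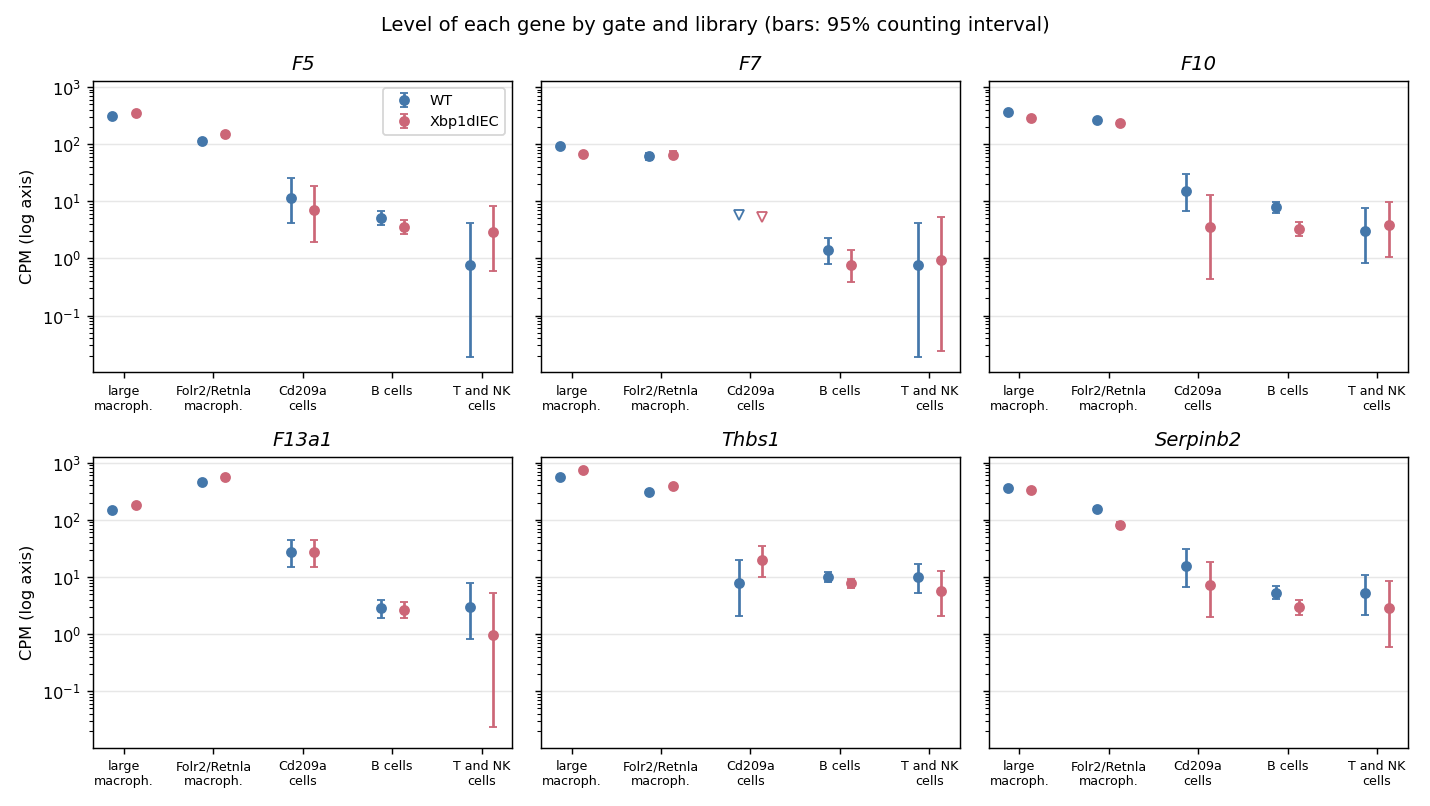
Level of each gene (CPM, log axis) in each gate of the WT and Xbp1dIEC libraries; points are summed UMIs scaled to the gate's total and bars the 95% counting interval, B cells and T and NK cells are drawn apart, and open triangles mark the level of 3 UMIs where none was counted. F13a1 is highest in the Folr2/Retnla gate (463 and 564 CPM) and the other genes in large macrophages, while every Cd209a and lymphocyte value is under 30 CPM.

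The Folr2/Retnla gate separated F13a1 from the other genes. F13a1 stood there at 463 CPM (440 to 488) in WT and 564 CPM (538 to 591) in Xbp1dIEC, above its level in large macrophages by 1.66 and 1.62 on the log2 scale. It was the only one of the 6 genes past 2-fold in that direction, as were 2.21% of all genes tested in WT and 2.38% in Xbp1dIEC. After each cell was thinned to 2000 UMIs, F13a1 was found in 55.5% of WT and 58.8% of Xbp1dIEC cells of this gate, against 20.1% and 23.3% of large macrophages. The same share in lymphocytes was 0.354% and 0.388%.

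F5 and Serpinb2 had the opposite pattern. F5 stood at 112 CPM (100 to 124) in WT and 149 CPM (136 to 163) in Xbp1dIEC cells of the Folr2/Retnla gate, log2 differences of -1.46 and -1.26 from large macrophages. Serpinb2 stood at 155 CPM (142 to 170) and 82.1 CPM (72.3 to 92.8), differences of -1.23 and -2.00. These 2 of the 6 genes were past 2-fold lower in both libraries, as were 2.86% of all genes tested in WT and 3.12% in Xbp1dIEC.

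Thbs1 at 313 and 383 CPM differed from large macrophages by -0.86 and -0.94. F10 at 259 and 237 CPM differed by -0.49 and -0.25. F7 was at 60.7 CPM (52.3 to 70.1) in WT, below large macrophages by an interval that did not reach 0 (log2 -0.58, -0.81 to -0.37). In Xbp1dIEC it was at 65.4 CPM (56.7 to 75.0), and the interval of the difference included 0 (-0.03, -0.25 to 0.18).

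In this gate Retnla was at 16029 CPM in WT and 17776 CPM in Xbp1dIEC and Folr2 at 254 and 194 CPM, and Gata6 and Timd4 were still detected in it (32.8 and 57.8 CPM in WT). Its summed level of 5 monocyte genes was 396 CPM in WT and 433 CPM in Xbp1dIEC, beside 48.1 and 42.9 CPM in large macrophages. Most of this sum was Ccr2, at 358 and 387 CPM. In WT, Plac8 was also higher than in large macrophages, but Ly6c2, Chil3 and Vcan were lower. In Xbp1dIEC only Vcan was lower. The summed level of 3 class II genes was 10110 and 8363 CPM, beside 579 and 395 CPM. The part of the monocyte and class II genes in the F13a1 and Serpinb2 levels was not tested. When 1 Folr2 UMI and no Gata6 or Timd4 UMI were asked of each cell, 105 WT and 134 Xbp1dIEC cells were left. The differences from large macrophages then widened to 2.04 and 2.00 for F13a1 and to -1.93 and -1.39 for F5. Thbs1, at -1.27 and -1.06, passed 2-fold in both libraries under this narrower gate, and F7 in Xbp1dIEC changed sign to 0.14. The share of all genes past 2-fold under the narrower gate was not counted.

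In Cd209a cells, a small class II-high population, all 6 genes were 2-fold lower than in large macrophages in both libraries, as were 21.8% of all genes tested in WT and 20.8% in Xbp1dIEC. No F7 UMI was counted in either library. The exact interval of a count of 0 reached 7.10 CPM in WT and 6.62 CPM in Xbp1dIEC. These limits were 7.79% and 9.88% of the F7 level in large macrophages. Set against 3 UMIs over the gate (5.77 CPM in WT and 5.38 CPM in Xbp1dIEC), F7 was 15.8-fold and 12.4-fold higher in large macrophages. F13a1 was at 26.9 CPM in both libraries (14.7 to 45.2 and 15.1 to 44.4), from 14 UMIs in 6 of 71 cells and 15 UMIs in 7 of 80 cells, with up to 5 in 1 cell. In both libraries this interval lay above those of F13a1 in B cells and in T and NK cells. How many of all genes did so was not counted. Relative to its large macrophage level, F13a1 reached 18.4% and 14.7% in Cd209a cells. The medians over the 7 marker genes of large macrophages were 1.72% and 1.70%, but the gating itself kept those genes low in Cd209a cells. Among genes not used in the gates, Csf1r reached 30.5% and 36.2%, Lyz2 10.0% and 9.57%, and Pf4 1.62% and 2.08%. F5, F10 and Serpinb2 in these cells rested on 2 to 8 UMIs per library, and Thbs1 on 4 and 11.

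Within large macrophages the 6 genes were spread differently over cells. Thinning to 2000 UMIs per cell, which left out no cell, gave F5 in 43.6% of WT and 49.9% of Xbp1dIEC large macrophages. If its molecules had been spread evenly, 44.4% and 52.2% would have been reached. F13a1 was found in 20.1% and 23.3%, where an even spread gave 24.0% and 29.2%. Serpinb2 was found in 45.1% and 44.1%, where an even spread gave 51.3% and 48.9%. Thbs1 was found in 60.6% and 70.6%, under even values of 69.0% and 79.2%, and its variance over cells was 1.54 and 1.61 times its mean. That ratio was 1.05 and 1.11 for F5, 1.47 and 1.55 for F13a1, and 1.497 and 1.341 for Serpinb2.

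F10 was found in 47.7% of WT and 37.6% of Xbp1dIEC large macrophages, F7 in 13.6% and 11.6%, and Serpinb2 in 45.1% and 44.1%. In lymphocytes the thinned shares of the 6 genes were between 0.243% and 1.67%. Without thinning, the shares in large macrophages ran from 41.8% (F7) to 92.7% (Thbs1) in WT and from 30.5% to 93.7% for the same genes in Xbp1dIEC, and in lymphocytes from 0.583% to 5.92%. At 2000 UMIs, only 4.96% of WT and 3.26% of Xbp1dIEC large macrophages had no UMI of any of the 6 genes, and 42.3% and 44.5% had UMIs of at least 3 of them. Many single macrophages thus carried several of these transcripts.

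**Figure D2:**
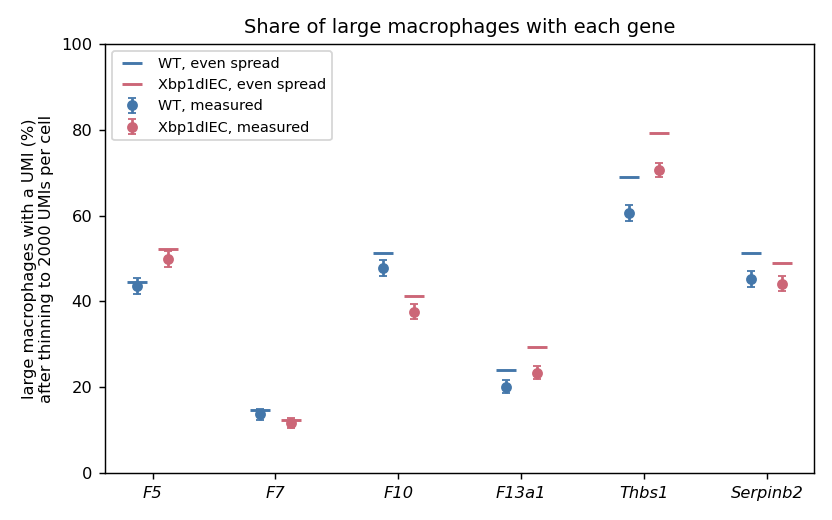
Share of large macrophages with a UMI of each gene (%), after each cell was thinned to 2000 UMIs, for the WT and Xbp1dIEC libraries; points carry 95% Clopper-Pearson intervals and dashes mark the share that an even spread of the same molecules would give. In WT, F5 lies at 43.6% against a dash at 44.4%, Thbs1 at 60.6% against 69.0% and F13a1 at 20.1% against 24.0%.

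Each of the 15 pairs of genes was compared by the share of cells with 1 gene, among cells with and without the other. The 95% intervals of the shares did not overlap for 3 pairs in WT and 5 in Xbp1dIEC. The matching number over pairs of all genes was not counted, so whether these numbers are high was not tested. F5 was found in 35.5% of WT large macrophages with F13a1 and in 45.6% of those without, and in 44.3% and 51.7% in Xbp1dIEC. Thbs1 was found in 65.2% of WT cells with Serpinb2 and in 56.9% of those without, and in 73.7% and 68.2% in Xbp1dIEC. The intervals of these shares did not overlap in either library. F7, neighbour of F10, was found in 16.0% of WT cells with F10 and 11.5% of those without, with intervals apart, but in 11.97% and 11.39% in Xbp1dIEC, where the intervals overlapped. F13a1 and Serpinb2 were found apart in Xbp1dIEC, where F13a1 was in 19.4% of cells with Serpinb2 and 26.4% of those without. In WT those shares were 19.7% and 20.4%, with overlapping intervals. Thbs1 was in 74.1% of Xbp1dIEC cells with F5 and 67.2% of those without, and in 63.3% of those with F7 and 71.6% of those without. In WT the intervals of both of these pairs overlapped.

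Over single large macrophages, Pearson's r of log-scaled UMIs was weak for every pair of the 6 genes. F7 and F10 gave 0.18 in WT and 0.16 in Xbp1dIEC, Thbs1 and Serpinb2 0.18 and 0.15, and F5 and F13a1 -0.16 and -0.12. These correlations and those that follow are descriptions over 2862 and 2911 cells that share a library, with depth of the cell among the things they share.

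Among 7219 genes found in at least 5% of large macrophages of both libraries, the genes most like each member were ranked by the lower of the correlations in the libraries. F5 was most like Prg4, the lubricant proteoglycan that marks these macrophages (r 0.27 in WT and 0.23 in Xbp1dIEC), followed by Khk, Cd9, Ecm1 and Garnl3. F13a1 was most like the complement genes C1qb (0.24 in both libraries), C1qa and C1qc, with Lgals1 and Lyve1. Thbs1 was most like Fn1, the fibronectin gene (0.23 and 0.20), then Serpinb2, Ltbp1, Gda and Itga6. Serpinb2 was most like Hspa5, the chaperone BiP of the endoplasmic reticulum (0.25 and 0.18), then Serpinb1a, Emilin2 and Tagln2. F10 was most like the adhesion gene Icam2 (0.22 and 0.21), then H2-D1, Ubb, Gapdh and Eno1. F7 was most like Apoe (0.17 in both), then Ubb, F10, Prdx6 and Slpi. F7 and F10 shared Ubb, and no other gene stood in more than 1 of these lists.

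F7 and F10 differed from the other members in large macrophages that carried Cxcl13. An earlier grouping of these same cells had already set Cxcl13-high large macrophages apart from those with Slpi and F7. A lower F7 level in Cxcl13 cells was thus partly known beforehand. In cells with 5 or more UMIs of the B cell chemokine Cxcl13 (610 WT and 715 Xbp1dIEC cells), F7 was at 64.3 CPM in WT and 42.8 CPM in Xbp1dIEC, against 98.5 and 74.8 CPM in the other large macrophages. F10 was at 294 and 229 CPM against 384 and 300 CPM. The log2 differences were -0.61 and -0.79 for F7 and -0.38 and -0.39 for F10, with intervals apart from 0 in both libraries. The other 4 genes differed by 0.22 or less on the log2 scale. Of these, Serpinb2 (0.14 and 0.22) and Thbs1 (0.09 and 0.09) had intervals above 0 in both libraries. Those of F5 and F13a1 included 0. The share of all genes that differed in this split was not counted. Median depth in cells with and without Cxcl13 was near equal, at 9602 and 9384 UMIs in WT.

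Cells with 2 or more UMIs of Slpi, a secreted protease inhibitor, made up 92.8% of WT and 83.5% of Xbp1dIEC large macrophages. The earlier grouping of these same cells had paired Slpi with F7, so a higher F7 level in Slpi cells was also known beforehand. F7 stood at 93.3 CPM in them and 46.3 CPM in the rest in WT, and at 70.8 and 40.3 CPM in Xbp1dIEC. F13a1 stood at 150.0 and 69.9 CPM in WT, and at 192 and 119 CPM in Xbp1dIEC. Slpi cells were deeper, however, with a median of 9685 UMIs against 5609 in WT. When the state was read on cells thinned to 2000 UMIs, the log2 difference of F7 was 0.69 in WT and 0.65 in Xbp1dIEC, in place of 0.99 and 0.80. That of F13a1 was 0.18 and 0.51, in place of 1.09 and 0.69. Thinning also changed which cells counted as Slpi cells, from 2655 to 2438 in WT.

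Cells with a UMI of the secreted-protein genes Wnt2 or Pi16 had less F13a1, at 121 against 182 CPM in WT and 143 against 231 CPM in Xbp1dIEC (log2 -0.58 and -0.69). F5 was higher in them, at 339 against 267 CPM and 383 against 325 CPM (0.34 and 0.23). Serpinb2 differed by 0.22 and 0.38. F5 and F13a1 thus lay on opposite sides of this marker in both libraries, as they did in the pair shares above.

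Cycling cells, with 3 or more UMIs of 7 cell-cycle genes, were 8.77% of WT and 3.81% of Xbp1dIEC large macrophages. Thbs1 was lower in them, at 423 against 591 CPM in WT and 498 against 749 CPM in Xbp1dIEC (log2 -0.48 and -0.59). F7 differed by 0.06 in WT, where the interval included 0 (-0.11 to 0.23), and by 0.55 (0.28 to 0.82) in Xbp1dIEC. F10 differed by -0.15 and 0.21. Cycling cells were deeper, with a median of 15044 UMIs against 9157 in WT.

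**Figure D3:**
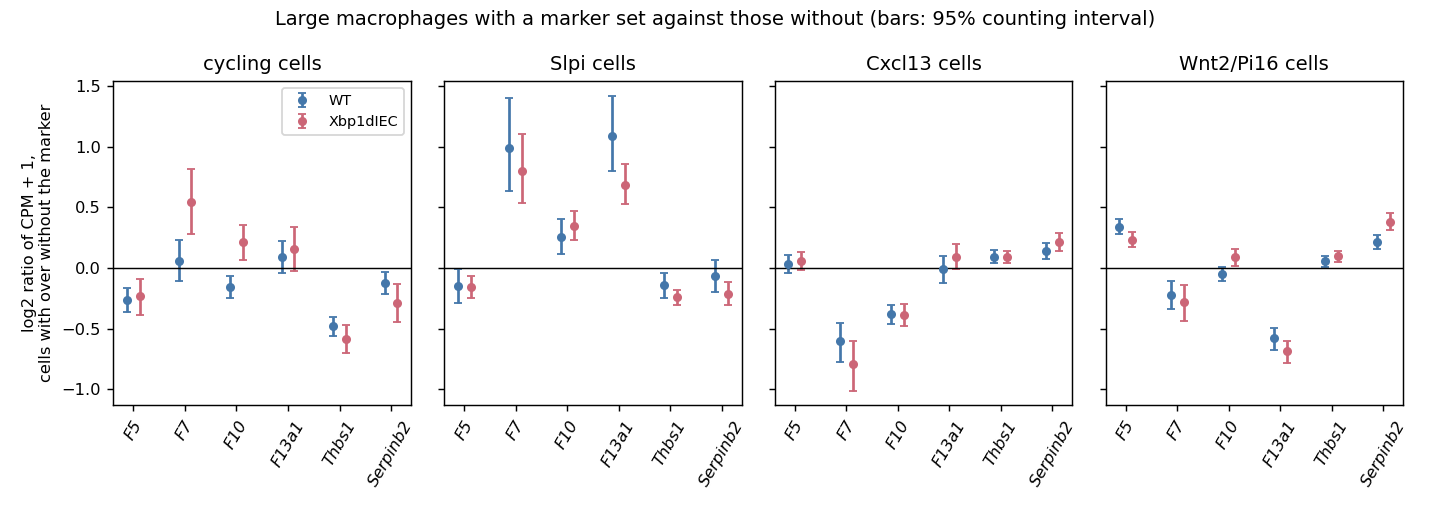
Log2 ratio of CPM + 1 between large macrophages with and without each state marker, for the 6 genes in the WT and Xbp1dIEC libraries; bars are 95% counting intervals and the line marks no difference. F7 and F10 lie under the line in Cxcl13 cells in both libraries, F13a1 lies under it in Wnt2/Pi16 cells (-0.58 and -0.69), and Thbs1 lies under it in cycling cells (-0.48 and -0.59).

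Between the libraries, the members differed little in large macrophages, and not in 1 direction. F7, at 91.1 CPM in WT and 67.0 CPM in Xbp1dIEC, gave a log2 ratio of Xbp1dIEC over WT of -0.44 (-0.54 to -0.35), and F10 gave -0.37 (-0.41 to -0.32). Thbs1 gave 0.36 (0.33 to 0.40), F13a1 0.32 (0.26 to 0.38) and F5 0.21 (0.16 to 0.25). Serpinb2 gave -0.14 (-0.18 to -0.10). The neighbouring protease genes were thus lower in the Xbp1dIEC library, and F5, F13a1 and Thbs1 higher.

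None of the 6 genes passed 1.5-fold in either direction. Of 11114 genes tested, 0.306% were past it in the higher and 2.64% in the lower direction. The median log2 ratio was 0.03 over the 6 genes and -0.06 over all genes. The middle 90% of all genes lay between -0.47 and 0.30, a range that held F5, F7, F10 and Serpinb2 and left F13a1 and Thbs1 just outside. The sizes are those of 2 pools and cannot be told apart from differences between pools or captures.

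Cycling cells were fewer in Xbp1dIEC, with the summed level of the cell-cycle genes in large macrophages at 108 CPM against 239 CPM in WT. In large macrophages outside the cycling state the ratios were -0.47 for F7 and -0.40 for F10, and within it 0.02 and -0.03. The cycling values rested on 251 WT and 111 Xbp1dIEC cells. In those cells F7 was at 94.5 CPM (84.6 to 105) in WT and 95.8 CPM (79.7 to 114) in Xbp1dIEC. F10 was at 332 CPM (313 to 351) and 324 CPM (294 to 357). Among cells with Cxcl13 the F7 ratio was -0.58 and among those without it -0.39, while F10 gave -0.36 and -0.35. The sum of 8 immediate early genes, which can respond to cell handling, was 511 CPM in WT and 467 CPM in Xbp1dIEC large macrophages, and its part in the ratios was not tested. All 6 ratios kept their sign in both groups of cells for Cxcl13, Slpi and Wnt2/Pi16.

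In the Folr2/Retnla gate, Serpinb2 was at 155 CPM in WT and 82.1 CPM in Xbp1dIEC, a log2 ratio of -0.91 (-1.14 to -0.70). It was the only one of the 6 genes past 1.5-fold. Of 8272 genes tested there, 5.36% were past it lower and 2.66% higher. The ratio was -0.33 under the narrower Folr2 gate, at 104 and 82.2 CPM, which no longer passed 1.5-fold.

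F5 gave 0.41 (0.21 to 0.62) in this gate, and 0.75 in the narrower one, where it passed 1.5-fold. Under the narrower gate 767 genes were past 1.5-fold in either direction, in place of 663. Their share of the genes tested is not given here, and values of the narrower gate are given without counting intervals. F7 gave 0.11 (-0.19 to 0.40) with an interval that included 0, and 0.63 in the narrower one. F13a1 gave 0.28 (0.18 to 0.39), Thbs1 0.29 (0.17 to 0.42) and F10 -0.13 (-0.28 to 0.02). The median over the 6 genes was 0.19, beside -0.06 over all genes. The calls for Serpinb2, F5 and F7 in this gate thus depended on which cells were taken. In Cd209a cells no member reached the 30 UMIs over both libraries that a ratio required.

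**Figure D4:**
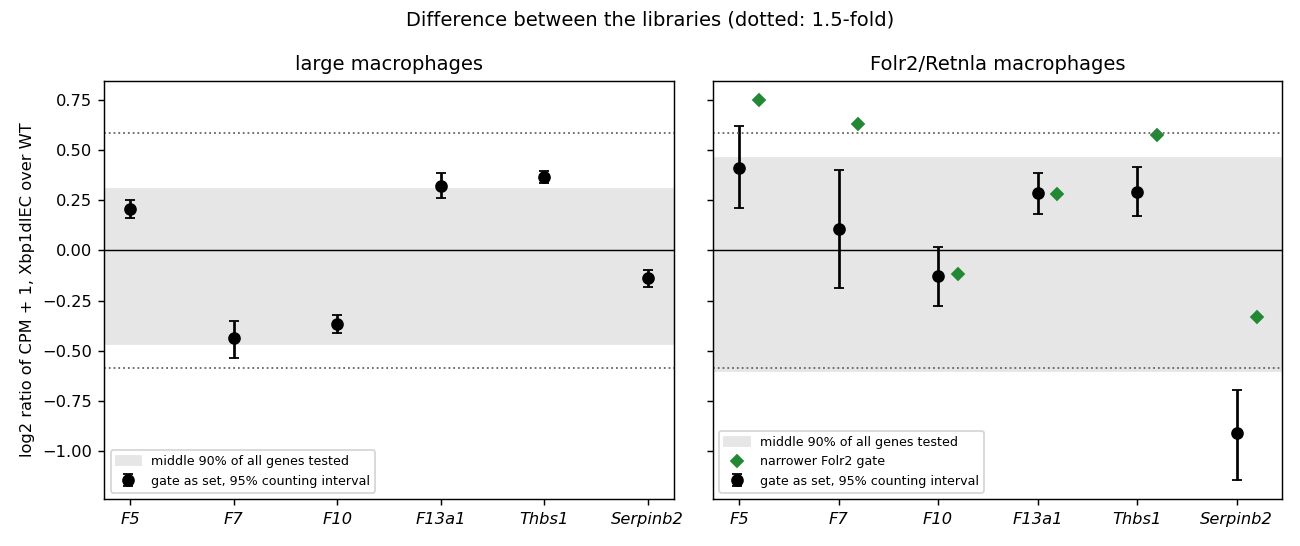
Log2 ratio of CPM + 1 of Xbp1dIEC over WT for the 6 genes in large macrophages (left) and in the Folr2/Retnla gate (right); bars are 95% counting intervals, the grey band holds the middle 90% of all genes tested, dotted lines mark 1.5-fold, and diamonds give the value in the narrower Folr2 gate. In large macrophages every gene lies inside the dotted lines, and in the Folr2/Retnla gate Serpinb2 lies at -0.91 but at -0.33 in the narrower gate.

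The rest of the pathway was mostly low or undetected in large macrophages. A list of 48 other genes of coagulation, fibrinolysis and their receptors was listed in full in the files. In large macrophages 13 of them had no UMI and 19 had 30 or more. All 13 procoagulant genes beside the members were under 1.2 CPM in both libraries, and 7 of them, among them the 3 fibrinogen chains Fga, Fgb and Fgg, had no UMI. F3, which encodes tissue factor, the partner of factor VII, was at 1.13 CPM in WT and 0.995 CPM in Xbp1dIEC. F13b, the carrier subunit of factor XIII, had no UMI. The 4 protease-activated receptors were under 1.2 CPM too. Large macrophages thus carried transcripts of F5, F7, F10 and F13a1 with nearly none of F2, F3, F8 or F9.

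The genes that handle these factors were measured. Vkorc1, which recycles vitamin K for the carboxylation of factors VII and X, was at 140.3 CPM in WT and 145 CPM in Xbp1dIEC large macrophages, and the carboxylase Ggcx at 2.73 and 4.25 CPM. Lman1 and Mcfd2, the cargo receptor pair that carries factor V out of the endoplasmic reticulum, were at 73.2 and 36.1 CPM in WT and at 62.7 and 35.8 CPM in Xbp1dIEC. Among anticoagulants, Pros1, which encodes protein S, was at 124 and 133 CPM, and Thbd, which encodes thrombomodulin, at 17.7 and 23.5 CPM. The tissue factor pathway inhibitor gene Tfpi was at 7.63 and 6.56 CPM.

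In fibrinolysis, the plasminogen-binding genes were detected, and the plasminogen activators and plasminogen itself were at or near 0. S100a10 was at 771 CPM in WT and 632 CPM in Xbp1dIEC, the plasminogen receptor Plgrkt at 51.1 and 43.0 CPM, and the urokinase receptor Plaur at 149 and 127 CPM. In lymphocytes S100a10 was at 771 and 748 CPM, Plgrkt at 89.2 and 89.4 CPM, and Plaur at 34.2 and 37.4 CPM. S100a10 and Plgrkt were thus not particular to macrophages. Plau, the urokinase that Serpinb2 inhibits, had 6 and 5 UMIs in all large macrophages (0.218 and 0.226 CPM), Plat had 1 and 0, and Plg had none. Of the thrombospondin receptors, Cd36 was at 170 and 196 CPM, Cd47 at 153 and 138 CPM, and Itgav at 13.7 and 16.0 CPM. Lymphocytes had less Cd36 (11.6 and 8.33 CPM) and Itgav (7.13 and 5.77 CPM) but more Cd47 (399 and 386 CPM).

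Anxa2, the partner of S100a10, was at 249 CPM in WT and 153 CPM in Xbp1dIEC large macrophages, a log2 ratio of -0.70 (-0.76 to -0.64). It was the only 1 of the 19 genes with 30 or more UMIs past 1.5-fold lower, and none was past it higher, beside the 2.64% and 0.306% of all genes given above. The median ratio of those 19 genes was -0.10, and that of all genes -0.06. In the Folr2/Retnla gate, 13 genes had 30 or more UMIs, none passed 1.5-fold, and their median was -0.12. Anxa2 was there at 476 and 317 CPM. It was also lower in Xbp1dIEC lymphocytes (137 and 101 CPM, log2 ratio -0.44) and Cd209a cells (760 and 406 CPM, -0.90).

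**Figure D5:**
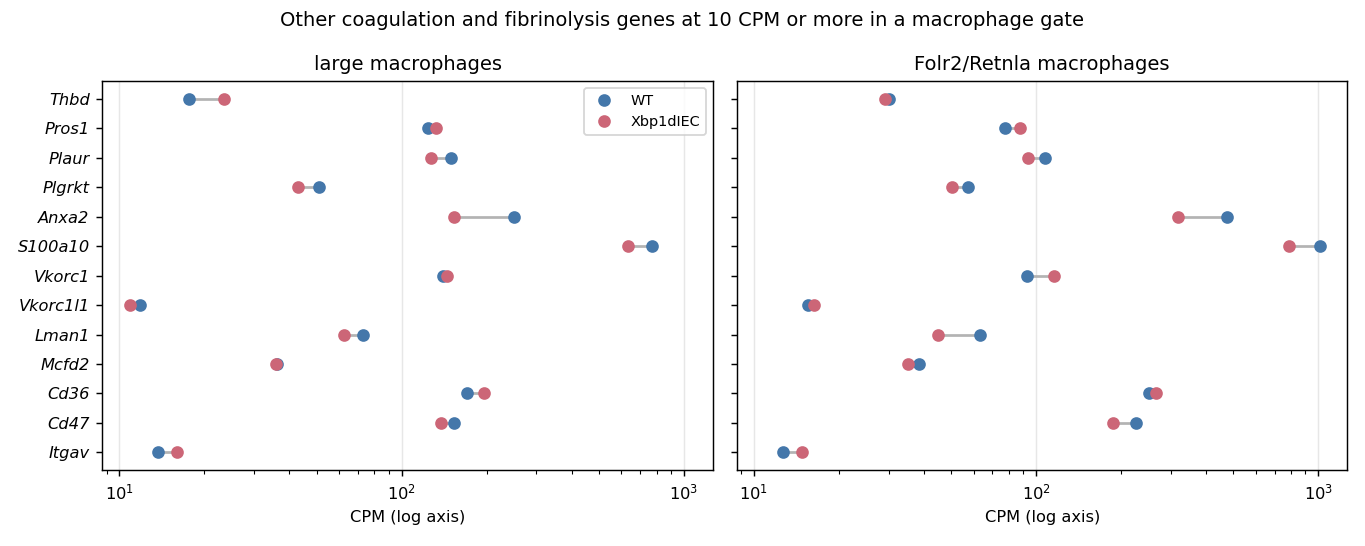
Level (CPM, log axis) of the 13 other coagulation and fibrinolysis genes that reached 10 CPM in a macrophage gate, in large macrophages (left) and in the Folr2/Retnla gate (right); points are the WT and Xbp1dIEC libraries, joined by a line. Anxa2 has the widest gap between the libraries in large macrophages (249 and 153 CPM).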

How the data were processed

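Whole-number UMI counts, deposited by the authors for each gene and barcode, were used as they stand; they are not normalized. Names came from the deposited gene and barcode lists. The submitters' processing notes list Cell Ranger (2.2.0), Seurat (2.3.0) and mm10. Annotation and barcode filtering: not given in the sources used here. The members, gene lists and state markers were chosen with earlier results of these data known.

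Filters asked for at least 500 UMIs, at least 200 genes and a mitochondrial share below 10%. Scrublet, run per library in scanpy 1.11.5 with an expected rate of 5%, called 140 WT and 113 Xbp1dIEC doublets, which were removed. A cell passed a macrophage gate with 5 or more UMIs of its list and any other gate with 3 or more, and went to the myeloid list with the most UMIs. Cells that passed for more than 1 lineage (761 and 547) were left out. UMIs were summed per gate and library. Levels have exact Poisson intervals, ratios conditional binomial intervals and shares Clopper-Pearson intervals. Log2 ratios had 1 CPM added, which understates differences of low genes, and background shares used genes with 30 or more UMIs. Shares were read after thinning to 2000 UMIs. The genes named were the members, marker genes, pathway genes at 10 CPM or more and the 5 genes most like each member (1 of them is not reported here); pathway genes under that level, and Xbp1, were named after their values were seen. Ratios and thinning were tested on simulated data. The narrower Folr2 gate, the removal of shared barcodes and states read on thinned cells were chosen after seeing the data. Python 3.11.15, numpy 2.4.6, scipy 1.17.1 and pandas 2.3.3 were used.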

Additional observations from a re-analysis of the deposited data

How the results depend on the processing

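No paired analysis was possible because each genotype had 1 library. In large macrophages, 47 of 54 recomputed log2 ratios of Xbp1dIEC over WT stayed within the counting interval of the value given, none changed sign and none crossed 1.5-fold. The exceptions were small. Scaling by the trimmed mean of M-values, which shifts every ratio by 0.07, gave 0.27 for F5, -0.30 for F10, 0.39 for F13a1, 0.43 for Thbs1 and -0.071 for Serpinb2. A mean over cells gave -0.091 for Serpinb2, and a limit of 5% mitochondrial UMIs gave 0.33 for Thbs1. In the Folr2/Retnla gate, 55 of 60 stayed within it. The narrower Folr2 gate gave 0.75 for F5, 0.63 for F7, 0.58 for Thbs1 and -0.33 for Serpinb2, and asking 2 times the UMIs of any other myeloid list gave 0.024 for F10, a change of sign. The mean over cells gave -0.04 for F7, also a change of sign. The cause was not tested. The number of genes past 1.5-fold depended on the pseudocount and filter: with 10 CPM added it was 42 in place of 327 in large macrophages and 85 in place of 663 in the Folr2/Retnla gate. Without a filter on UMIs it was 1845 there and 4943 in place of 457 in Cd209a cells. Depth limits the Cd209a cells most, where 3 UMIs stand for 5.77 CPM in WT.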

Other observations

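Barcodes with markers of more than 1 lineage, and those that passed no gate, entered no comparison. The 761 WT and 547 Xbp1dIEC barcodes of mixed lineage carried F5 at 79.1 CPM (73.6 to 84.8) and 59.3 CPM (53.6 to 65.5), and Thbs1 at 147 CPM and 131 CPM. F7 stood at 25.1 CPM (22.1 to 28.5) in the mixed WT barcodes and 12.4 CPM (9.84 to 15.4) in the mixed Xbp1dIEC ones, and F10 at 114 and 57.9 CPM. Serpinb2 was at 86.0 and 48.3 CPM in them and F13a1 at 73.7 and 82.8 CPM. All of these lay between the large macrophage and lymphocyte levels of the same gene and library. Among the 66 WT and 68 Xbp1dIEC barcodes that passed no gate, F13a1 was at 174 CPM (137 to 217) and 120 CPM (88.5 to 159), and F10 at 109.7 CPM (80.8 to 145) and 52.5 CPM (32.5 to 80.3). F5 in those barcodes was at 9.14 and 20.0 CPM, from 4 and 8 UMIs.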
